A study of Danio rerio with 26 samples.

Results

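Activator protein 1 (AP-1) is a transcription factor built from pairs of Jun, Fos and ATF proteins, which bind DNA through a basic region and a leucine zipper. Many of its genes are immediate early genes: they are transcribed within minutes of a stimulus without new protein synthesis, under the control of mitogen-activated protein kinases (MAPK), calcium and serum response factor. Jun and Atf3 are known for their induction in injured neurons, and Ddit3 (CHOP) and Gadd45 proteins for their induction by cellular stress and DNA damage. Adult zebrafish regenerate neurons after a stab wound of the telencephalon from radial glia of the ventricular zone.

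The 10 genes described here, of 19260 genes measured, were taken by symbol from the platform annotation: the Jun family genes jun, junba and junbb, the Fos family genes fosab, fosb and fosl1a, the ATF family gene atf3, the C/EBP family gene ddit3, the zinc finger immediate early gene egr1, and gadd45ba. All 10 were found, each on exactly 1 probe set with that symbol alone. The probe sets were 13097880 for atf3, 13094935 for jun, 12958335 for junba, 13164748 for junbb, 13105945 for fosab, 13059613 for fosb, 13015483 for fosl1a, 13217529 for ddit3, 13014567 for egr1 and 12972598 for gadd45ba. No filter on low values was applied, so all 10 genes entered every test.

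Expression was measured on 26 microarrays of telencephalic tissue from adult zebrafish aged 3 to 6 months. Every fish, controls included, carried the transgene Tg(gfap:gfp)mi2001, which drives green fluorescent protein from the promoter of the glial gene gfap. The dorsal parenchyma was sampled on 3 arrays at day 2 after stab-wound injury, on 3 at day 7 and on 2 without a lesion, the dorsal subventricular zone (SVZ) on 3 arrays in each condition, and the medial neurogenic zone on 4, 3 and 2 arrays. The arrays are labelled as biological replicates, with no word on the number of animals behind an array, on pooling, or on a sham operation of the unlesioned fish. The treatment text describes an injection through a hole in the skull and not a stab wound, and the series design names only the dorsal SVZ and the dorsal parenchyma. Since tissue and not sorted cells was measured, fewer cells of a type and less RNA per cell cannot be told apart.

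Values are log2 intensities, in which a difference of 1 is a doubling, and levels of different probe sets are not compared with each other. Array medians lay between 3.01 and 3.21. A level at or under 3.09, the median of all probe sets on all arrays, was not taken as above background. Errors are the SD over n arrays for group means and the SE for log2 fold changes. A gene was called when its Benjamini-Hochberg adjusted p from limma, adjusted over all 19260 genes, was under 0.05. The radial glia genes s100b and fabp7a were higher in the dorsal SVZ and medial zone than in the parenchyma (group means of s100b 10.27 to 10.80 against 7.74 to 8.47), and the endothelial gene cdh5 was highest in the parenchyma (6.60 to 6.83 against 4.93 to 5.34), but gfap itself was not higher in the ventricular regions (7.12 to 7.55 against 7.57 to 8.37). Markers of microglia and macrophages, which changed with the lesion, are given below.

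Of the 10 genes, atf3, jun and ddit3 were called within a region against no lesion, and fosb, which was lower, was called when the regions were averaged. At day 2, atf3 and jun were called higher in the parenchyma (1.7% of all genes), and atf3 and ddit3 in the medial zone (0.379%). No member was called in the dorsal SVZ (0.27% of all genes in either direction). Under alternative settings of the fit, the medial call of ddit3 was lost in 7 of 14 and that of atf3 in 3 of 14. No member was called at day 7 against no lesion in any region, where few or no genes were called at all. The shares of all genes were 0.125% in the parenchyma and 0.0% in the dorsal SVZ and in the medial zone. All members but junbb varied more between arrays of the same group than the median gene on the platform. Fosab, junba, fosb and gadd45ba were above the 95th percentile of all genes.

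Atf3 is a basic leucine zipper protein that pairs with Jun and is induced in injured neurons and in glia. In the parenchyma, atf3 was measured at 2.98 and 2.77 without a lesion, at 5.03, 4.74 and 4.29 at day 2, and at 3.42, 3.58 and 3.75 at day 7. Medial arrays were at 3.55 and 3.80 without a lesion, at 5.79, 4.70, 5.51 and 5.25 at day 2, and at 4.74, 4.04 and 4.72 at day 7. In both regions every day 2 array was above every unlesioned array, and every day 7 array also exceeded the unlesioned ones. In the dorsal SVZ, atf3 was at 4.38, 3.27 and 3.32 without a lesion, at 3.03, 3.35 and 3.32 at day 2, and at 3.56, 3.76 and 3.66 at day 7. There the day 2 and unlesioned arrays overlapped, and the highest of the 9 dorsal SVZ arrays was an unlesioned array.

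The day 2 rise of atf3 in the parenchyma was 1.81 ± 0.31 on the log2 scale (adjusted p = 0.00101, limma), or 3.52-fold. Its unlesioned mean of 2.87 lay under 3.09, so this fold is not exact. The medial rise was 1.64 ± 0.29 (adjusted p = 0.00869, limma), or 3.11-fold. In the dorsal SVZ the day 2 change was -0.42 ± 0.28, with a 95% interval of -0.99 to 0.15 (adjusted p = 0.892, limma). The parenchymal call held under all 13 alternative settings (log2 1.64 to 2.02, adjusted p 4.5e-04 to 0.0247). The medial call was lost without unlesioned replicate 1 (1.51, adjusted p = 0.115), without unlesioned replicate 2 (1.76, adjusted p = 0.0877) and in a fit of that region alone (1.64, adjusted p = 0.0575).

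The test of the difference between regions called atf3: the day 2 change of the dorsal SVZ minus that of the parenchyma was -2.24 ± 0.42 on the log2 scale (adjusted p = 0.0439, limma). It rests on the same unlesioned parenchymal mean under 3.09 and is therefore not exact. In this comparison 0.0519% of all genes were called, all lower, and atf3 was the 1 member among them. Same-numbered day 2 arrays of these regions varied together, and in a fit with a replicate block the difference was -2.24 ± 0.42 (adjusted p = 0.074, limma), or -2.40 ± 0.45 (adjusted p = 0.11, limma) with the block nested in time, so neither blocked fit kept the call. It was lost in 14 of 20 alternative settings in all, including the removal of any 1 of 10 of the 11 arrays (adjusted p 0.0269 to 0.122 over all settings). Its direction was the same in all 20 (-2.46 to -1.88). Without dorsal SVZ unlesioned replicate 1, the high array, the difference was -1.88 (adjusted p = 0.11). The corresponding difference between the medial zone and the dorsal SVZ was 2.06 ± 0.40 and was not called (adjusted p = 0.49, limma), in a comparison with 0.0% of genes called by limma and 3.15% at an unadjusted p under 0.05. Between the medial zone and the parenchyma the difference was -0.18 ± 0.43, with a 95% interval of -1.06 to 0.71. None of the 10 was called there by limma (0.0104% of all genes), and junba and fosb had an unadjusted p under 0.05, as 7.3% of all genes had.

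From day 2 to day 7 the parenchymal level of atf3 changed by -1.10 and did not pass the test (adjusted p = 0.0503, limma). Against no lesion, day 7 was higher by 0.71 ± 0.31 in the parenchyma (adjusted p = 0.402), by 0.83 ± 0.31 in the medial zone (adjusted p = 1) and by 0.00 ± 0.28 in the dorsal SVZ (adjusted p = 1, all limma), and the parenchymal value is likewise not exact. Ordered by group mean, medial day 2 (5.31 ± 0.46, SD, n = 4), parenchymal day 2 (4.69 ± 0.38, n = 3) and medial day 7 (4.50 ± 0.40, n = 3) came highest and the unlesioned parenchyma (2.87 ± 0.15, n = 2) lowest. In that order 5 of the 8 neighbouring pairs of groups overlapped.

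**Figure D1:**
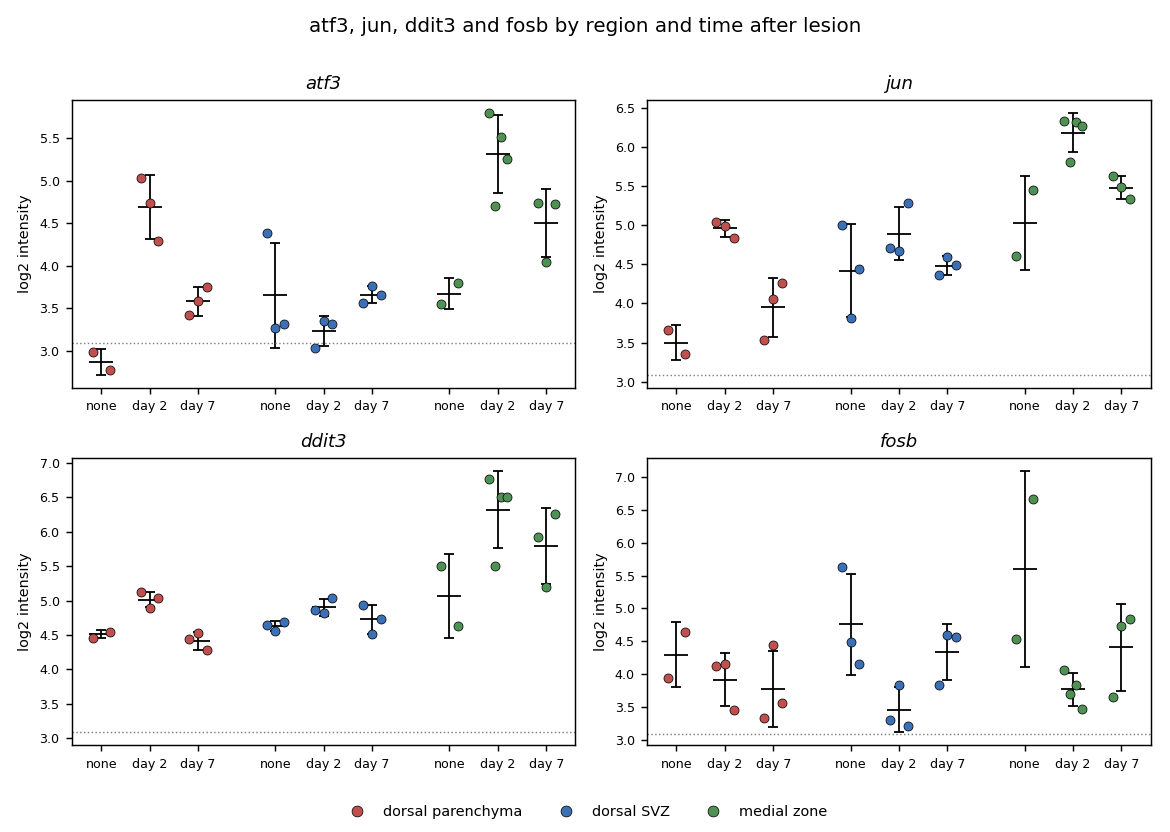
Log2 intensity of atf3, jun, ddit3 and fosb on each of the 26 arrays, by region (colour) and time after lesion (none, day 2, day 7); points are arrays, bars the group mean ± SD, and the dotted line the median of all probe sets, 3.09. The day 2 arrays of atf3 stand above the unlesioned arrays in the parenchyma and medial zone but not in the dorsal SVZ, and each panel has its own scale.

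Jun is the partner of Fos and ATF proteins in AP-1, and is the target of the Jun N-terminal kinases. Its parenchymal levels were 3.66 and 3.35 without a lesion, 5.04, 4.99 and 4.83 at day 2, and 3.53, 4.05 and 4.26 at day 7. Medial levels of jun were 4.60 and 5.45 without a lesion, 6.33, 5.81, 6.32 and 6.27 at day 2, and 5.63, 5.49 and 5.33 at day 7. The day 2 arrays were above all unlesioned and all day 7 arrays of the same region in both. Dorsal SVZ arrays were at 5.0, 3.81 and 4.44 without a lesion, at 4.71, 4.67 and 5.28 at day 2, and at 4.36, 4.59 and 4.49 at day 7, and the day 2 arrays did not separate from the unlesioned ones.

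The day 2 rise of jun in the parenchyma was 1.45 ± 0.29 (adjusted p = 0.00546, limma), or 2.74-fold. The call was lost without parenchymal unlesioned replicate 2 (adjusted p = 0.0754) and held in the other 12 settings (log2 1.29 to 1.61). The medial difference was 1.16 ± 0.28 and did not pass the test (adjusted p = 0.0645, limma), although it passed without day 2 replicate 2 (1.28, adjusted p = 0.0408). In the dorsal SVZ it was 0.47 ± 0.26 (adjusted p = 0.821, limma). The day 2 change of jun was not called as different between any regions: the log2 difference was -0.98 ± 0.39 for the dorsal SVZ against the parenchyma (adjusted p = 0.616) and -0.30 ± 0.40 for the medial zone against the parenchyma (adjusted p = 0.924, both limma).

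Without a lesion, jun was higher in the medial zone than in the parenchyma by 1.52 ± 0.32 (adjusted p = 0.00246, limma), or 2.88-fold. This was the 1 member called in a comparison in which 10.5% of all genes were called, 7.28% as higher. The call was lost without medial unlesioned replicate 2 (1.1, adjusted p = 0.0835) and held in the other 11 settings. The median log2 change of all genes in this comparison was 0.023 with the deposited scaling and -0.252 after array median subtraction, which left jun at 1.25 (adjusted p = 0.0103, limma). After this subtraction 28.7% of the called genes were higher in the medial zone, against 69.1% with the deposited scaling. Medial arrays of jun lay above all parenchymal arrays at day 2 and day 7 as well. So did those of ddit3. The share of all genes whose medial arrays all lay above the parenchymal ones was 27.5% without a lesion (atf3, jun, junba and ddit3 among the 10 genes), 14.0% at day 2 (jun and ddit3) and 16.8% at day 7 (atf3, jun and ddit3). Against the dorsal SVZ, the medial arrays of atf3, jun and ddit3 all lay higher at day 2 (9.86% of all genes) and at day 7 (14.0%).

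Ddit3, or CHOP, is a C/EBP family protein induced when the endoplasmic reticulum or amino acid supply is under stress. Medial arrays measured it at 5.50 and 4.63 without a lesion, at 6.76, 5.50, 6.50 and 6.50 at day 2, and at 5.92, 5.20 and 6.26 at day 7. Day 2 replicate 2 equalled the higher unlesioned array to 2 decimals and the other 3 were above it. The parenchymal arrays were at 4.46 and 4.55 without a lesion, at 5.12, 4.89 and 5.03 at day 2, and at 4.44, 4.53 and 4.28 at day 7, so that only the day 2 arrays stood apart. All 9 dorsal SVZ arrays lay between 4.51 and 5.04.

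The medial day 2 rise of ddit3 was 1.25 ± 0.29 (adjusted p = 0.0466, limma), or 2.38-fold. It was lost in 7 of 14 settings, among them the removal of medial day 2 replicate 1, 3 or 4 (adjusted p 0.108 to 0.135) and of medial unlesioned replicate 2 (0.82, adjusted p = 0.572). Without day 2 replicate 2 it was 1.52 (adjusted p = 0.00404). The parenchymal day 2 difference was 0.51 ± 0.30 (adjusted p = 0.523) and that of the dorsal SVZ 0.27 ± 0.27 (adjusted p = 0.966, both limma). The test of the difference between regions did not call ddit3, with 0.75 ± 0.42 for the medial zone against the parenchyma (adjusted p = 0.751) and 0.98 ± 0.39 against the dorsal SVZ (adjusted p = 1, both limma).

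In the parenchyma at day 2, atf3 and jun were the 2 of 10 members called, both higher, against 2.04% of all genes called and 1.7% called higher. Of all genes called there 83.7% were higher, and this share was 65.2% after array median subtraction and 72.3% after a further quantile normalization. Day 2 and unlesioned arrays did not overlap for 5 members on the higher side (atf3, jun, junba, ddit3 and egr1), as for 12.8% of all genes. The median log2 change of the 10 genes was 0.63, with 9 positive, against a median of -0.003 and 49.5% positive over all genes. In the medial zone at day 2 the 2 members called were atf3 and ddit3, against 0.493% of all genes called and 0.379% called higher. Medial day 2 arrays did not overlap with the unlesioned ones for atf3, jun and ddit3 on the higher side (8.3% of all genes) and for fosb on the lower side (8.3%), but for ddit3 the gap was only 0.006 on the log2 scale. There the median of the 10 genes was 0.08 with 5 positive, against -0.01 and 49.1%. At day 2 in the dorsal SVZ none of the 10 was called by limma, against 0.27% of all genes, and 1, fosb, had an unadjusted p under 0.05, against 6.8%. Its groups did not overlap on the lower side (6.09% of all genes), nor did those of ddit3 on the higher side (7.96%). The median there was 0.26, with 8 positive, against 0.02 and 52.8%.

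At day 7 none of the 10 was called against no lesion. In the parenchyma 0.125% of all genes were called. Atf3, egr1 and gadd45ba had an unadjusted p under 0.05 there, against 10.8% of all genes, and the groups did not overlap for atf3, junba, fosab and egr1 on the higher side (11.7%). Limma called no gene in the dorsal SVZ (0.0%), where 0 of the 10 and 4.45% of all genes had an unadjusted p under 0.05. It called none in the medial zone either (0.0%), where atf3, fosb and ddit3 had an unadjusted p under 0.05, against 4.07%, and the atf3 arrays did not overlap (9.33%).

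From day 2 to day 7 no member was called. In the parenchyma, with 1.15% of all genes called, atf3, jun and ddit3 had an unadjusted p under 0.05 (10.2% of all genes), and the same genes had all day 7 arrays under all day 2 arrays (6.23%). The dorsal SVZ had 0.0519% of all genes called and none of the 10 at an unadjusted p under 0.05 (4.54%), and there day 7 arrays lay above those of day 2 for atf3 (4.58%) and under them for jun (6.36%). The medial zone had 0.421% called, with atf3, jun and, at the limit, ddit3 at an unadjusted p under 0.05 (8.75%), and jun without overlap (4.3%).

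**Figure D2:**
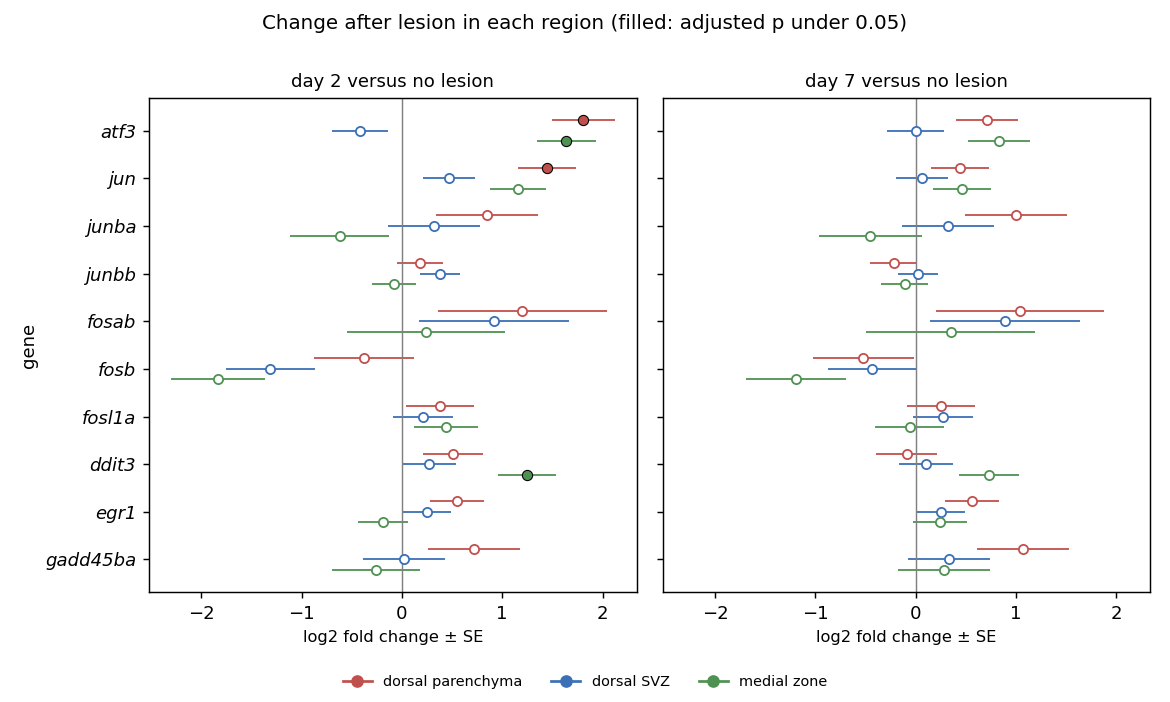
Log2 fold change against no lesion with its SE for the 10 genes, at day 2 and day 7, in each region (colour); filled points passed an adjusted p of 0.05 (limma). The filled points are atf3 and jun in the parenchyma and atf3 and ddit3 in the medial zone, all at day 2, and fosb has negative changes in all regions at both times.

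Averaged over the 3 regions with equal weight, 4 of the 10 members were called at day 2, against 3.9% of all genes (2.73% higher and 1.17% lower). Jun was higher by 1.03 ± 0.16 (adjusted p = 2.6e-04) and atf3 by 1.01 ± 0.17 (adjusted p = 6.4e-04, both limma), and both calls held in all 24 alternative settings. Ddit3 was higher by 0.68 ± 0.17 (adjusted p = 0.0187) and fosb lower by a log2 change of -1.17 ± 0.27 (adjusted p = 0.0132, both limma). The ddit3 call was lost without parenchymal unlesioned replicate 1 or medial unlesioned replicate 2 (highest adjusted p = 0.104), and that of fosb without parenchymal unlesioned replicate 2 or medial unlesioned replicate 2 (log2 -1.52 to -0.82 over all settings, highest adjusted p = 0.082). The share of called genes that were higher was 69.9% with the deposited scaling and 47.6% after array median subtraction, and the 4 members kept their directions. For atf3 this mean joins regions with rises and the dorsal SVZ, where the change was -0.42, or -0.06 without unlesioned replicate 1. At day 7 limma called 0.0935% of all genes and none of the 10 in the averaged comparison, with atf3, fosb, egr1 and gadd45ba at an unadjusted p under 0.05, against 8.68%.

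Fosb is a Fos family protein, of which a long-lived splice form accumulates in the mammalian brain after repeated stimulation. Averaged over the regions at day 2, fosb was lower while atf3 and jun were higher, but in the dorsal SVZ the change of atf3 was negative as well (-0.42). On the medial arrays fosb was at 4.54 and 6.66 without a lesion, at 4.07, 3.70, 3.83 and 3.47 at day 2, and at 3.65, 4.74 and 4.84 at day 7. On the dorsal SVZ arrays it was at 5.63, 4.49 and 4.16 without a lesion, at 3.30, 3.84 and 3.22 at day 2, and at 3.84, 4.60 and 4.57 at day 7. Both regions had all day 2 arrays under all unlesioned arrays. Parenchymal levels overlapped, with 3.94 and 4.65 without a lesion, 4.13, 4.16 and 3.45 at day 2, and 3.33, 4.44 and 3.56 at day 7.

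Within regions the day 2 change of fosb did not pass the test: it was -1.83 ± 0.47 in the medial zone (adjusted p = 0.0994), -1.31 ± 0.44 in the dorsal SVZ (adjusted p = 0.403) and -0.38 ± 0.50 in the parenchyma (adjusted p = 0.833, all limma). Medial unlesioned replicate 2, at 6.66, was the highest of all 26 arrays for fosb. Without it the medial change was -0.77 (adjusted p = 0.822), and without medial unlesioned replicate 1 it was -2.89 (adjusted p = 0.0167, both limma). The unlesioned levels of fosb differed by 1.30 ± 0.54 between the medial zone and the parenchyma (adjusted p = 0.139, limma). This difference was 0.25 without medial unlesioned replicate 2 (adjusted p = 0.849) and 2.36 without replicate 1 (adjusted p = 0.0103, both limma), so both values turn on which of the 2 unlesioned medial arrays is kept.

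Fosab, a zebrafish Fos gene, had the widest scatter of the 10. Its parenchymal values were 6.41 and 7.06 without a lesion, 8.52, 8.85 and 6.46 at day 2, and 8.03, 7.59 and 7.69 at day 7. Dorsal SVZ arrays were at 8.38, 5.36 and 6.61 without a lesion, at 8.36, 8.60 and 6.13 at day 2, and at 8.02, 7.45 and 7.54 at day 7. Its medial values were 6.22 and 8.27, then at 8.63, 6.28, 8.14 and 6.88, and then at 8.34, 7.03 and 7.41. Replicate 3 was the low array at day 2 in the parenchyma and in the dorsal SVZ alike, and replicate 1 the highest array at day 7 in all 3 regions. The day 2 differences of fosab were 1.2 ± 0.84 in the parenchyma, 0.92 ± 0.75 in the dorsal SVZ and 0.24 ± 0.79 in the medial zone, none of them called (adjusted p 0.606, 0.947 and 0.99, limma). The parenchymal interval of -0.53 to 2.94 spans no change and a rise larger than that of atf3.

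Junba, a JunB protein that acts in AP-1 with Fos partners, ranged from 5.14 to 7.36 over the 26 arrays. In the parenchyma it was at 5.24 and 5.90 without a lesion and at 6.07, 7.15 and 6.05 at day 2, and its day 7 arrays reached 6.06, 6.66 and 6.99. These groups did not overlap with the unlesioned arrays, but the log2 differences of 0.85 ± 0.51 at day 2 (adjusted p = 0.528) and 1.00 ± 0.51 at day 7 (adjusted p = 0.506, both limma) did not pass the test. In the medial zone the day 2 difference was -0.62 ± 0.49 (adjusted p = 0.84) and in the dorsal SVZ 0.32 ± 0.46 (adjusted p = 0.984, both limma). The highest junba array was medial unlesioned replicate 2, which was also the highest for fosb. Junbb, the second JunB gene, lay between 2.58 and 3.96 on all arrays, with group means under 3.09 in the medial zone at every time and between 3.14 and 3.56 in the other 6 groups, and no comparison called it.

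Fosl1a, related to mammalian Fra-1, which lacks the activation domain of Fos, had group means from 4.36 in the unlesioned parenchyma to 5.07 at day 2 in the medial zone. Its groups all overlapped with their neighbours in order of level, and no comparison called it. The day 2 differences were positive in the 3 regions, at 0.38, 0.21 and 0.44.

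Egr1 encodes a zinc finger protein that is not part of AP-1 and is widely read as a marker of neuronal activity. Its parenchymal values were 9.65 and 9.71 without a lesion, 10.14, 10.46 and 10.08 at day 2, and 10.06, 10.36 and 10.29 at day 7. All lesioned parenchymal arrays were above the unlesioned pair, yet the differences of 0.55 ± 0.27 (adjusted p = 0.403) and 0.56 ± 0.27 (adjusted p = 0.459, both limma) did not pass the test. Medial values were 9.28 and 9.66 without a lesion, 9.80, 8.74, 9.33 and 9.25 at day 2, and 10.01, 9.50 and 9.62 at day 7, and overlapped. In the dorsal SVZ egr1 was at 10.23, 9.23 and 9.81 without a lesion and between 9.75 and 10.23 afterwards.

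Gadd45ba encodes a Gadd45 beta protein, a stress sensor that activates p38 kinase and takes part in DNA demethylation in mammals. Parenchymal arrays were at 4.12 and 5.04 without a lesion, at 5.15, 5.97 and 4.79 at day 2, and at 5.99, 6.05 and 4.91 at day 7, with overlap at both times. The day 7 difference of 1.07 ± 0.46 was the largest of the 10 genes in that comparison and was not called (adjusted p = 0.396, limma). Its highest group means were those of the dorsal SVZ, between 5.83 and 6.16. Unlesioned dorsal SVZ arrays lay above the unlesioned parenchyma for gadd45ba, atf3, jun and ddit3, as for 19.4% of all genes, and limma called no member between these groups (6.69% of all genes), where atf3, jun and gadd45ba had an unadjusted p under 0.05 (19.4%). Between the unlesioned medial zone and dorsal SVZ it called none of the 10 either (4.15%), and jun had an unadjusted p under 0.05 (14.3%).

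**Figure D3:**
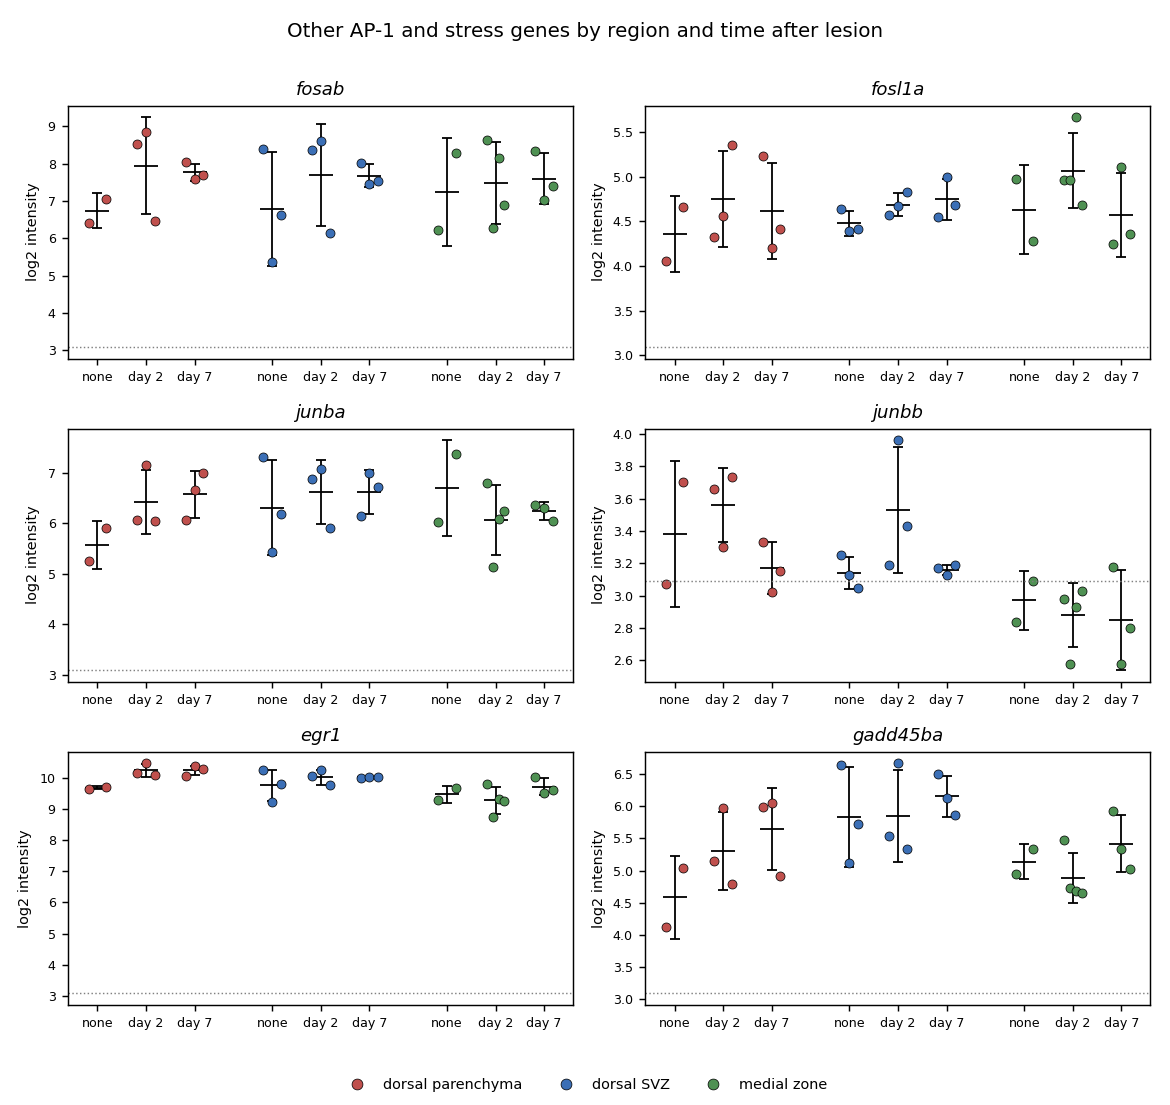
Log2 intensity of fosab, fosl1a, junba, junbb, egr1 and gadd45ba on each of the 26 arrays, by region (colour) and time after lesion; points are arrays, bars the group mean ± SD, and the dotted line 3.09. Arrays of the same group spread widely for fosab, whose range runs from 5.36 to 8.85, and junbb lies near the dotted line throughout; each panel has its own scale.

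Arrays of the same group differed more for some members than for others. The residual SD of the model was 1.05 for fosab, above that of 99.8% of all genes, 0.63 for junba (98.5%), 0.61 for fosb (98.3%) and 0.56 for gadd45ba (97.3%). The median over all genes was 0.28. It was 0.36 for atf3, 0.35 for ddit3 and 0.34 for jun, and junbb, at 0.25, was the member under the median. For the 4 genes of widest spread, no change within a region was called, although differences reached -1.83 for fosb and 1.2 for fosab.

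The deviations of the arrays from their group means were correlated for each of the 45 pairs of the 10 genes over the 26 arrays, with permutation within groups. Junba and egr1 deviated together most closely (r = 0.87, rho = 0.86, both with a Benjamini-Hochberg adjusted permutation p of 4.5e-04, from a raw p of 1.0e-05, the smallest the permutations can give). Their r was 0.91 in the parenchyma, 0.92 in the dorsal SVZ and 0.86 in the medial zone, and 0.83 without the 2 farthest arrays. Here and below, the farthest arrays are those with the most extreme deviations of the first-named gene alone, so arrays extreme only for the second gene stay in. Fosab and egr1 had r = 0.84 and rho = 0.83 (raw permutation p 1.3e-04 and 1.4e-04, adjusted 0.00292 and 0.00315), with 0.47 in the parenchyma against 0.92 and 0.90 in the other regions. These genes therefore moved from array to array within a group, beside any change between groups.

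Further pairs passed on both measures. Junba and fosab had r = 0.77 and rho = 0.73 (raw permutation p 0.00235 and 0.00279, adjusted 0.0176 and 0.0251), with 0.45 in the parenchyma, and r = 0.71 without the 2 farthest arrays. Fosab and gadd45ba had r = 0.73 and rho = 0.69 (raw permutation p 0.00119 and 0.00167, adjusted 0.0153 and 0.0188), and 0.66 without the 2 farthest. Atf3 and jun had r = 0.66 and rho = 0.68 (raw permutation p 0.00136 and 0.00104, adjusted 0.0153 and 0.0156), and 0.52 without the 2 farthest. Atf3 with egr1 (0.75), atf3 with fosab (0.68) and egr1 with gadd45ba (0.67) passed on r but not on rho (adjusted permutation p 0.0711, 0.0711 and 0.0655). Fosl1a had r of 0 or under with 8 of the 9 others, from -0.26 to -0.04, and none passed. For some of these pairs the sign differed between regions. With atf3 r was -0.85 in the parenchyma, 0.63 in the dorsal SVZ and -0.28 in the medial zone, and with jun -0.82, 0.66 and -0.28. With fosab it was negative in each (-0.39, -0.04 and -0.21). Ddit3 and jun, which had like group means, had r = 0.00 within groups. Some same-numbered arrays of different regions vary together, so the 26 arrays are not fully independent and these p-values are too small to that extent.

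The deviations also followed genes outside the 10. Those of junba correlated at r = 0.88 over the 26 arrays with the mean of 36 other immediate early genes, those of fosb and egr1 at 0.70 each, those of fosab at 0.60, of jun at 0.55 and of atf3 at 0.54. The correlation of fosb with the mean of 21 clock and glucocorticoid-responsive genes was 0.55, as was that with erythrocyte genes, and that of jun with the genes downstream of AP-1 was also 0.55. For gadd45ba it was 0.67 with the MAPK kinases and phosphatases, 0.62 with mature neuron genes and -0.55 with lymphocyte genes. Of the lists tried, these are all those with r above 0.5 in size. All these values share the same arrays and carry no test.

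**Figure D4:**
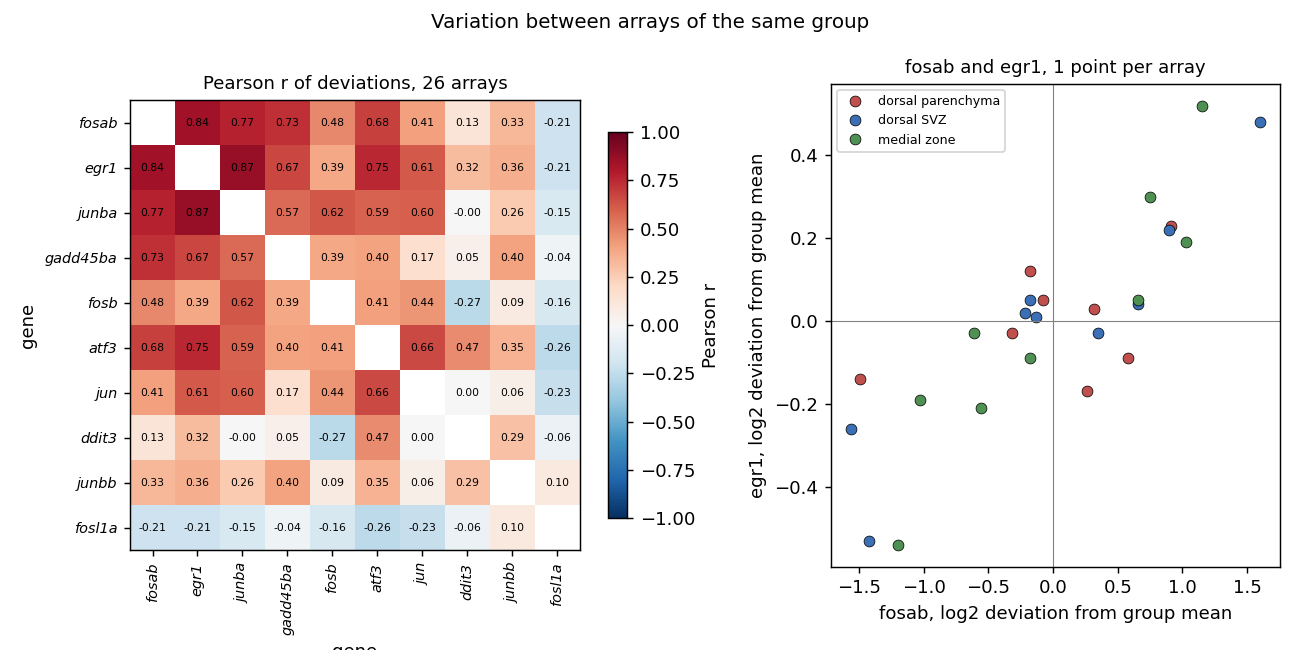
Left, Pearson r between the deviations of each pair of the 10 genes from their group means over 26 arrays (red positive, blue negative). Right, the deviations of fosab and egr1 on the log2 scale, 1 point per array, coloured by region; the points run from lower left to upper right (r = 0.84), and fosl1a in the left panel is the gene with mostly negative values.

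Over the 9 group means, the genes most like each member were named among 14317 genes with a group mean above 3.09. For jun, whose group means spanned 2.68, these were the mitotic genes nusap1 (r = 0.977), cenpn (0.975) and cdc25b (0.974). For ddit3, with a span of 1.90, they were bod1 (0.979), which acts at the kinetochore, the histone mRNA binding gene slbp (0.978) and the thrombin receptor gene f2r (0.975). For atf3, with a span of 2.44, they were snrnp40 (0.951), tdp1 (0.947) and pimr122 (0.937). For junba the nearest was egr2b (0.937), another immediate early gene. The nearest for fosb was adarb1a (0.937), for fosab phkb (0.956) and for gadd45ba ddx46 (0.967). All were picked as the best of 14317 genes over only 9 group means. Over the 26 arrays the first-named gene had r of 0.91 for jun, 0.85 for ddit3, 0.64 for atf3 and 0.76 for junba. For fosb, fosab and gadd45ba this r was 0.49, 0.49 and 0.27. Group means of pimr122 ran from 2.69 to 3.59, those of cenpn from 2.5 to 3.95 and those of tdp1 from 3.05 to 3.83, all on both sides of 3.09. Among the 10, jun and ddit3 were the closest over the group means (r = 0.934), followed by atf3 and jun (0.844) and atf3 and ddit3 (0.838).

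Markers of proliferation and of microglia and macrophages moved with the lesion beside atf3, jun and ddit3. The mean of 16 proliferation genes on the medial arrays was 4.62 to 4.63 without a lesion, 5.54 to 6.01 at day 2 and 4.48 to 4.78 at day 7, with 5 of 16 higher at day 2 (0.379% of all genes). In the parenchyma it was 3.83 to 3.85, then 4.09 to 4.66, and 2 of 16 were higher (1.7% of all genes). In the dorsal SVZ it was 3.80 to 4.12, then 4.41 to 5.01, and 1 of 16 was higher (0.27% of all genes called in either direction). Without a lesion 6 of 16 were higher in the medial zone than in the parenchyma (7.28% of all genes), the comparison in which jun was called.

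On parenchymal arrays the mean of 18 microglia and macrophage genes was 5.04 to 5.27 without a lesion and 7.47 to 8.24 at day 2. There 16 of 18 genes were higher, against 1.7% of all genes. In the dorsal SVZ, where atf3 was not called, this mean went from 5.05 to 5.39 to 6.28 to 6.93. Of the 18 genes 10 were higher there, against 0.27% of all genes called in either direction. In the medial zone the mean went from 5.02 to 5.15 to 6.24 to 6.73, with 10 of 18 higher (0.379% of all genes). For the macrophage gene mpeg1.1 the day 2 means were 8.61 ± 0.60 (SD, n = 3) in the parenchyma, 6.96 ± 0.29 (n = 3) in the dorsal SVZ and 6.33 ± 0.31 (n = 4) in the medial zone, and the neutrophil gene mpx had group means between 3.04 and 3.42. Of 7 measured neutrophil genes, csf3r, a receptor of granulocyte growth factor, was higher at day 2 in the parenchyma (3.85-fold, adjusted p = 9.4e-04) and in the averaged comparison (2.33-fold, adjusted p = 1.4e-04, both limma), and the other 6 were not called. The medians of 21 clock and glucocorticoid-responsive genes were -0.41, -0.47 and -0.70 at day 2 in the parenchyma, dorsal SVZ and medial zone. Limma called 0 of 21 in each region (2.04%, 0.27% and 0.493% of all genes). At an unadjusted p under 0.05, 3, 5 and 8 were lower. A share of all genes at this threshold is given only for the dorsal SVZ (6.8%, either direction). These counts are therefore not compared between regions or read as a result about the clock genes. The averaged comparison called 3 lower, against 1.17% of all genes. The part of these markers in the changes of the 10 genes was not tested.

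A list of other basic leucine zipper genes held Jun, Fos, ATF and CREB genes and also the C/EBP, Maf, Nfe2l and Bach genes. Of 36 measured of 37 listed, 2 (5.56%, against 1.7% of all genes) rose in the parenchyma at day 2, namely cebpa (2.41-fold, adjusted p = 0.00644), a C/EBP gene and myeloid differentiation factor, and atf5a (3.12-fold, adjusted p = 0.0369, both limma), related to mammalian ATF5 of the mitochondrial stress response. The list's median log2 change was 0.10, against 0.63 for the 10 genes. Both sets were chosen with earlier results of these data known, so no conclusion is drawn from this difference. In the averaged day 2 comparison 5 of 36 (13.9%, against 2.73% of all genes) rose, cebpa, atf5a, creb1a, bach1b and bach1a (1.30- to 1.91-fold), and none fell. Without a lesion atf5b was 6.46-fold lower in the medial zone than in the parenchyma (adjusted p = 7.1e-05) and atf5a 2.80-fold higher (adjusted p = 0.0376, both limma). The call of atf5b held in all 12 alternative settings and that of atf5a was lost in 6 of them (log2 0.73 to 2.24, highest adjusted p = 0.416). None of the 36 was called by limma at day 2 in the dorsal SVZ (0.27% of all genes) or the medial zone (0.493%). In the dorsal SVZ 3 had an unadjusted p under 0.05, against 6.8% of all genes. In the medial zone 5 had one, a count with no share of all genes given beside it.

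Upstream of AP-1, 1 of 31 measured MAPK kinases and phosphatases (3.23%, against 1.7% of all genes) rose in the parenchyma at day 2. It was map3k8 (1.71-fold, adjusted p = 0.0275, limma), a kinase of the inflammatory ERK cascade. None of the 31 was called by limma in the averaged comparison (3.9% of all genes). There 5 had an unadjusted p under 0.05, a threshold for which no share of all genes is given. Of 36 other immediate early genes, 4 (11.1%, against 1.7% of all genes) rose in the parenchyma at day 2. They were zfp36l1a (3.54-fold) and zfp36l1b (2.88-fold), both of which promote mRNA decay, klf2a (2.21-fold) and ier5l (1.96-fold), with adjusted p 0.00121 to 0.0307 (limma). Ier5l was also higher at day 7 there (2.36-fold, adjusted p = 0.0325, limma). In the averaged comparison 3 rose (8.33%, against 2.73% of all genes) and 2 fell, against 1.17% of all genes. Those that fell were nfil3-6 (1.71-fold lower) and the glucocorticoid target klf9 (5.10-fold lower), with adjusted p 0.0309 and 0.0346 (limma).

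In the integrated stress response and unfolded protein response, to which ddit3 belongs, 1 of 25 measured genes (4.0%, against 1.7% of all genes) rose in the parenchyma at day 2. It was herpud1 (1.79-fold, adjusted p = 0.0105, limma), which acts in the degradation of endoplasmic reticulum proteins. In the medial zone at day 2, where ddit3 rose, none of the 25 was called by limma (0.493% of all genes). The median log2 change of the 25 was 0.03. An unadjusted p under 0.05 was found for 2, both lower, with no share of all genes given. Averaged over the regions 4 rose (16.0%, against 2.73% of all genes). These were the disulfide isomerases pdia4 (1.82-fold) and pdia6 (1.43-fold), the kinase gene eif2ak3 (1.51-fold) and the chaperone gene hsp90b1 (1.38-fold). Chac1, in mammals a target of ATF4 and CHOP, fell (1.31-fold lower, adjusted p = 0.0419, limma). Of 18 other GADD45 and p53 growth arrest genes, 1 (5.56%, against 1.7% of all genes) rose in the parenchyma at day 2, sesn3 (1.98-fold, adjusted p = 0.0411, limma). None of the 18 was called by limma in the averaged comparison (3.9% of all genes). There 5 had an unadjusted p under 0.05, again without a share of all genes to set beside them.

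Of 34 measured injury genes described downstream of AP-1 in fish or mammals, 3 (8.82%, against 1.7% of all genes) rose in the parenchyma at day 2. They were the tubulin gene tubb5 (2.84-fold), the neuronal injury factor sox11a (3.12-fold) and stat3 (2.55-fold), with adjusted p 1.9e-04 to 0.00415 (limma). In the medial zone at day 2 stat3 alone was called (2.47-fold, adjusted p = 0.0166, limma), or 2.94% against 0.379% of all genes called higher. In the dorsal SVZ none of the 34 was called by limma (0.27% of all genes), with 6 at an unadjusted p under 0.05 (6.8% of all genes). In the averaged comparison 6 rose (17.6%, against 2.73% of all genes), among them stat3 (2.16-fold), the heme oxygenase gene hmox1a (2.51-fold) and the cytokine receptor gene il6st (1.58-fold). Sox11b fell there (1.88-fold lower, adjusted p = 0.0294, limma).

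Among the named calls outside the 10 genes, those of tubb5 and csf3r in the parenchyma at day 2 held in all alternative settings. So did the averaged calls of cebpa, csf3r, hmox1a, ier5l, il6st, pdia4, sox11a, stat3 and zfp36l1a. Averaged calls were lost in 17 of 24 settings for bach1b, 14 for chac1, 13 each for bach1a and hsp90b1, 12 for klf9, 11 for nfil3-6, 10 for zfp36l1b, 8 for sox11b, 6 for creb1a, 5 for pdia6, 4 for eif2ak3 and 2 for atf5a. The day 7 call of ier5l was lost in 6 of 13 settings. The other 11 parenchymal day 2 calls named were each lost without unlesioned replicate 1 or 2 of that region, most of them in further settings too. Of 13 settings, the calls of sesn3 and klf2a were lost in 9 each, atf5a in 6 and ier5l in 5. Those of cebpa and herpud1 were lost in 3 each, and those of sox11a, stat3, zfp36l1a and zfp36l1b in 2 each. The map3k8 call was lost in 7 of 12. That of stat3 in the medial zone was lost in 4 of 14, among them the removal of either unlesioned replicate.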

How the data were processed

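RMA in Affymetrix Expression Console 1.2 gave the deposited log2 intensity values, per the submitters' processing notes. Per the labels' protocols, RNA was amplified before labelling. No genome build is given in the sources used here, no scanner file was used, and no sequence or position is given. Of 75212 probe sets, 20806 carried 1 symbol, 855 several and 53551 none in the platform annotation. Of the first, 20323 were matched to current names by Entrez identifier, with 1 symbol changed. The probe set of highest mean stood for its gene, which left 19260 genes.

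In limma 3.58.1 (R 4.3.3), the means of the 9 groups were estimated from the 26 arrays together, and 17 comparisons were tested by lmFit, contrasts.fit and eBayes, each adjusted over all genes. The procedure was tested on simulated data with independent arrays. That simulation leaves out the shared variation of same-numbered arrays described below. Other steps were run with scipy 1.17.1, numpy 2.4.6, pandas 2.3.3 and matplotlib 3.10.9 under python 3.11.15. Replicates are the labels' biological replicates, whose separate origin is not described further, so p-values measure the spread between these arrays, and 2 to 4 arrays per group limit the precision.

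The 10 genes and all gene lists were chosen with earlier results of these data known, so no list is independent evidence. Named genes are all 10 members, up to 4 called genes of each list with the smallest adjusted p in a comparison discussed, and for members whose group means span at least 1, the 3 genes with the highest r over the 9 group means; further names (bach1a, klf9, chac1, sox11b) complete counts of 5 or fewer or single out a gene that fell, and were chosen after their values were seen. Replicate numbers were checked as a pairing by correlating the deviations of same-numbered arrays over 13928 genes. At the same time point 11 of 24 such pairs exceeded 0.1, among them all 3 pairs of parenchyma and dorsal SVZ at day 2 (0.15 to 0.24), and within a region 1 of 23. The pairing comes from this correlation and not from the labels, and the unlesioned arrays did not pair. Alternatives were array quality weights, removal of the genes with the lowest means (12840 left), array median subtraction, a further quantile normalization and the replicate block. Others were a trend and robust prior, a fit of the regions compared alone, every probe set and the removal of each array. The gene removal, the prior, the fit of the regions alone and every probe set cannot change a member's log2 estimate. They can change only its error or adjusted p, as each member has 1 probe set.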

Additional observations from a re-analysis of the deposited data

Results flagged for a closer look

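Among the 10 groups of 4 arrays, which are the 10 genes in the medial zone at day 2, a single array lay far from the others for 2 genes. For jun, replicate 2 at 5.81 was below the others at 6.27 to 6.33, and its gap was 0.89 of the group's range. For gadd45ba, replicate 1 at 5.47 was above the others at 4.65 to 4.72, with a gap of 0.92 of the range. Chance marks about 1 in 20 groups in this way. Medial day 2 replicate 2 was also the lowest of its group for atf3, ddit3, junba, fosab and egr1, and replicate 1 the highest of its group for atf3, ddit3, junba, fosab and egr1.

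The day 2 change of atf3 differed between the dorsal SVZ and the parenchyma by -2.24 on the log2 scale (adjusted p = 0.0439, limma), with the values, blocked fits and lost calls given above.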

How the results depend on the processing

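Across the 17 comparisons 270 alternative settings were tried on the count of called members, and 240 left it within 1.5 times the reported count. Most of these comparisons had no called member, so the 240 include settings in which a count of 0 stayed at 0. The 240 are therefore no measure of how well the calls held, for which the lost calls are given. No called member reversed its direction in any setting. Averaged over the regions, 4 members were called and 2 to 4 with 1 array left out. At day 2 in the parenchyma 2 were called and 1 to 2 with 1 array left out. In the medial zone at day 2, 2 were called, 1 with array quality weights, 1 with the replicate block, 0 in the fit of that region alone, and 0 to 3 with 1 array left out. For day 7 against day 2 in the parenchyma, where none was called, 2 (atf3 and jun) were called without the genes of lowest mean, 1 with the trend and robust prior, and 0 to 1 with 1 array left out. For the unlesioned dorsal SVZ against the parenchyma, where none was called, the replicate block called 1 (gadd45ba), and 0 to 1 were called with 1 array left out. For the unlesioned medial zone against the parenchyma 1 was called, and 0 to 2 with 1 array left out. For the difference of the day 2 change between dorsal SVZ and parenchyma 1 was called, 0 with array quality weights, 0 with the replicate block, 0 with the block nested in time, which was added after seeing the data, 0 in the fit of these regions alone, and 0 to 1 with 1 array left out. The fit of fewer regions has fewer arrays behind its error; the cause of the other changes was not tested. Under the replicate block the ddit3 call in the medial zone ended (log2 1.14, adjusted p = 0.0902, limma), and that of atf3 between regions; of the other 8 calls among members none was lost.

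Counts over all genes moved by more than 1.5 times: 392 genes at day 2 in the parenchyma became 80 to 458 over the alternatives, 52 in the dorsal SVZ became 14 to 85, and 95 in the medial zone became 24 to 105. Limits are the 2 unlesioned arrays of the parenchyma and of the medial zone, on which several lost calls turned, the unknown number of animals per array, no sham group named in the labels, a single probe set per gene, and levels not above 3.09 for junbb in the medial zone and for atf3 in the unlesioned parenchyma.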

Other observations

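Arrays above their own group means for junba, fosab, fosb and egr1 together occurred among unlesioned samples as well as lesioned ones. Among the lesioned, medial day 2 replicate 1 was at 8.63 for fosab, 6.80 for junba, 4.07 for fosb and 9.80 for egr1. Replicate 2 of that group was at 6.28, 5.14, 3.70 and 8.74. By level, fosb reached no more than 4.84 on any lesioned array. Unlesioned dorsal SVZ replicate 1 was at 8.38 for fosab, 7.30 for junba, 5.63 for fosb and 10.23 for egr1, against 5.36, 5.43, 4.49 and 9.23 for replicate 2. Unlesioned medial replicate 2 was at 8.27, 7.36, 6.66 and 9.66 for the same genes, against 6.22, 6.02, 4.54 and 9.28 for replicate 1. The labels used here give no time from handling to dissection.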
